A study of Mus musculus with 12 samples.

Results

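The 30 genes described here carry out or control de novo lipogenesis in the liver, together with the genes that deliver carbohydrate carbon and NADPH to it. They were chosen by symbol, from what their products are known to do, among the 51912 gene identifiers of the table, and all 30 had enough counts to be tested. They comprise 4 genes of acetyl-CoA and NADPH supply, 3 of carboxylation and its regulation, fatty acid synthase with Spot 14, 4 elongases, 4 desaturases, 4 transcription factors, Pnpla3, 4 genes of glycolysis, fructose and glycerol phosphate, and 4 of the pentose phosphate pathway.

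Livers of 12 mice were compared by 3' mRNA sequencing, in 4 groups of 3 animals: Mlkl-/- mice on a high-fat diet (HFD), Mlkl-/- mice on normal chow (ND), wild-type (WT) mice on HFD and WT mice on ND. MLKL is the pseudokinase that breaks the plasma membrane in necroptosis, and the study asks about its part in obesity and fatty liver brought on by diet. HFD held 36% fat and drew 59% of its energy from lipid, and the sources used here do not give the composition of ND. Mice were 8 to 9 weeks old when the diets began. The sample labels give 25 weeks of diet and the series text 16 to 25 weeks. The animals were taken in the fed state and picked for organ weights near the mean, so the spread between them may be narrower than in all mice of a group. The sources used here do not give the construction of the Mlkl-/- allele, its genetic background or the strain of the WT mice.

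In de novo lipogenesis, citrate made in mitochondria from sugar carbon leaves through a carrier and is split to acetyl-CoA in the cytosol. Acetyl-CoA carboxylase turns acetyl-CoA into malonyl-CoA, fatty acid synthase builds palmitate from both with NADPH, and elongases and desaturases reshape the product. In the liver the programme is known to follow feeding, with SREBP-1c (from Srebf1) answering to insulin, ChREBP (from Mlxipl) to sugar metabolites and the LXR receptors (from Nr1h3 and Nr1h2) to oxysterols. The same elongases and desaturases also work on fatty acids that come from the diet.

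Libraries held 19435391 to 32120426 counts. Mlkl was counted 16, 9 and 34 times in Mlkl-/- HFD, 16, 15 and 20 times in Mlkl-/- ND, 134, 252 and 88 times in WT HFD and 72, 76 and 92 times in WT ND libraries. The sources used here do not say which part of the gene is deleted, and 3' reads that lie outside it would check nothing. Summed hepatocyte markers ran from 67607 to 116782 CPM (a library's counts scaled to a common total with TMM factors) over the 12 libraries, with 0 of the 8 markers at 0. The libraries also fell into a high and a low level at 8 loci of small RNAs, an antisense gene and Lars2, at 3484 to 9239 against 378 to 656 CPM without TMM. The high level was found in all 3 Mlkl-/- HFD libraries, Mlkl-/- ND replicate 1 and WT HFD replicates 2 and 3. Each title also carries a number after the diet, which the sources used here do not explain. It is 23 or 25 in 6 libraries and 27 or 29 in the other 6. The numbers 23 and 27 occur only on ND, and 25 and 29 only on HFD. Nothing in the labels says whether the animals came from separate litters or cages. The p-values set group differences against the spread between animals within the groups, for these 12 animals.

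Promoter sequence is shown for the 4 genes with the largest ratio of diet effect to standard error, averaged over genotypes, among those with a window in the RefSeq table of GRCm38.p6. Fads1 had the largest ratio of all 30 genes but no window. Each window runs from 250 bases before to 50 bases after the annotated start and is written 5' to 3' on the strand of the gene. Capitals mark matches on either strand to the E-box CACGTG, the CCAAT box CCAAT or the GC box GGGCGG, so that ATTGG and CCGCCC are matches on the opposite strand.
The windows are Acacb at chr5:114165268-114165567 on the plus strand, Elovl5 at chr9:77917115-77917414 on the plus strand, Fads2 at chr19:10101454-10101753 on the minus strand and Acss2 at chr2:155517793-155518092 on the plus strand.
Acacb: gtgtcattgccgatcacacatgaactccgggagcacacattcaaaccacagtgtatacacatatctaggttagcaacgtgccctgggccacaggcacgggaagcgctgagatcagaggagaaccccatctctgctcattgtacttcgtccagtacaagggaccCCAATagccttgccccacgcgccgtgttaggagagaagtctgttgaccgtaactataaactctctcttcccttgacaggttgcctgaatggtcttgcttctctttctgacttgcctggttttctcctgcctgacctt
Elovl5: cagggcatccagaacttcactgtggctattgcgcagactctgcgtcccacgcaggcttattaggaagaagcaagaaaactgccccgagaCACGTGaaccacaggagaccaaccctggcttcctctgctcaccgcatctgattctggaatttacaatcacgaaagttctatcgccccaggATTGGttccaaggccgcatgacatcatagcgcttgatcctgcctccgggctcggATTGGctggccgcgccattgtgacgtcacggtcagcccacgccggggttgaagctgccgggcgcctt
Fads2: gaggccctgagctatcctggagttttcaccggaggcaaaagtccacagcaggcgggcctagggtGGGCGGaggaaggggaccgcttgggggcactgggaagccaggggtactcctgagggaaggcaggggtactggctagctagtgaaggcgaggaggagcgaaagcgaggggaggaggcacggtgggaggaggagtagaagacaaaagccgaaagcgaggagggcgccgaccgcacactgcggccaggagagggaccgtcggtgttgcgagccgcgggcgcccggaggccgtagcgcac
Acss2: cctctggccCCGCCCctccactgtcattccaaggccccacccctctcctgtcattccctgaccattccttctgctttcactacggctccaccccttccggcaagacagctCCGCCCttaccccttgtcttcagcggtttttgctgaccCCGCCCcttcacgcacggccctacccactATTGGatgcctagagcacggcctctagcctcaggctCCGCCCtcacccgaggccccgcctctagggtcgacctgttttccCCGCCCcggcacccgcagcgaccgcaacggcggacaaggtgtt

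The Acacb window holds 1 CCAAT box, that of Elovl5 1 E-box and 2 CCAAT boxes, that of Fads2 1 GC box, and that of Acss2 1 CCAAT box and 5 GC boxes. Acacb's window lies within the annotated gene, which starts at 114146535, and so belongs to an internal start. Fads2's window lies almost wholly within its annotated gene, whose 5' end is at 10101746 on the minus strand. The annotated Acss2 gene, with its 5' end at 155517948, also begins before the start used for its window. Windows were found for 26 of the 30 genes, 35 windows in all, and for none of Fads1, Gpd1, Scd1 and Scd2. The E-box was in 4 of the 35 windows (11.4%), those of Elovl5, Khk, Mlxipl and Slc25a1, against 7.15% of all 32851 windows. The CCAAT box was in 48.6% of the gene group's windows against 37.4% of all, and the GC box in 51.4% against 35.7%. A sterol response element, searched as TCACNCCAC, was in 1 window, of Mlxipl (2.86%), against 1.24% of all. The LXR element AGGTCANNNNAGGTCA and the paired E-box CACGTGNNNNNCACGTG were in 0 of the 35 windows and in 0.0152% and 0% of all. Both strands were searched, the E-box is part of the paired E-box, and a match describes the letters and not a bound site.

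On HFD the 30 genes had a higher median than all genes together in both genotypes. In WT livers 7 of 30 genes rose (23.3%) and 0 fell: Acacb, Acss2, Elovl5, Fads1, Fads2, Pgd and Pnpla3. Over all 18098 genes tested, 4.23% were called in that comparison, 2.02% higher and 2.21% lower. Calls were made at an adjusted p under 0.05 by edgeR's quasi-likelihood test with Benjamini-Hochberg adjustment. Unless another fit is named, edgeR calls are from the fit of all 12 libraries with TMM factors. In Mlkl-/- livers 1 of 30 rose, Fads1, and 0 fell, against 0.359% of all genes, 0.21% higher and 0.149% lower. Averaged over genotypes 10 rose and 0 fell, against 7.19% of all genes, 3.57% higher and 3.62% lower, with Elovl2, Me1 and Scd1 joining the 7 of the WT comparison. DESeq2 called 13 of the 30 in WT livers, among 1441 of all genes. In Mlkl-/- livers it called 7, Acacb, Acss2, Elovl2, Elovl5, Fads1, Fads2 and Scd1, among 514 of all genes.

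The median log2 fold change of the 30 genes was 0.75 in WT and 0.38 in Mlkl-/- livers, and that of all genes -0.01 and -0.02. Fitted values were above 0 for 28 of 30 genes in WT and 27 in Mlkl-/- livers, against 49% and 48.1% of all genes, and 25 were above 0 in both. In the average 25 were above 0, against 48.2% of all genes. At an unadjusted p under 0.05 there were 20 genes in WT livers, 13 in Mlkl-/- livers and 22 in the average, against 20.5%, 13.6% and 22% of all genes. In WT livers all 3 HFD libraries lay above all 3 ND libraries for 20 of the 30 genes, against 14% of all genes, and below them for Mlxipl and Nr1h3, against 15.2%. In Mlkl-/- livers HFD lay wholly above ND for 11 genes, against 8.02% of all, and wholly below for 0, against 7.49%. Separation in both genotypes was seen for 9 of the 30 genes, against 2.69% of all genes: Acss2, Acacb, Elovl1, Elovl2, Elovl5, Scd1, Fads1, Fads2 and Pnpla3. The diet comparisons in WT and in Mlkl-/- livers share no library.

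**Figure D1:**
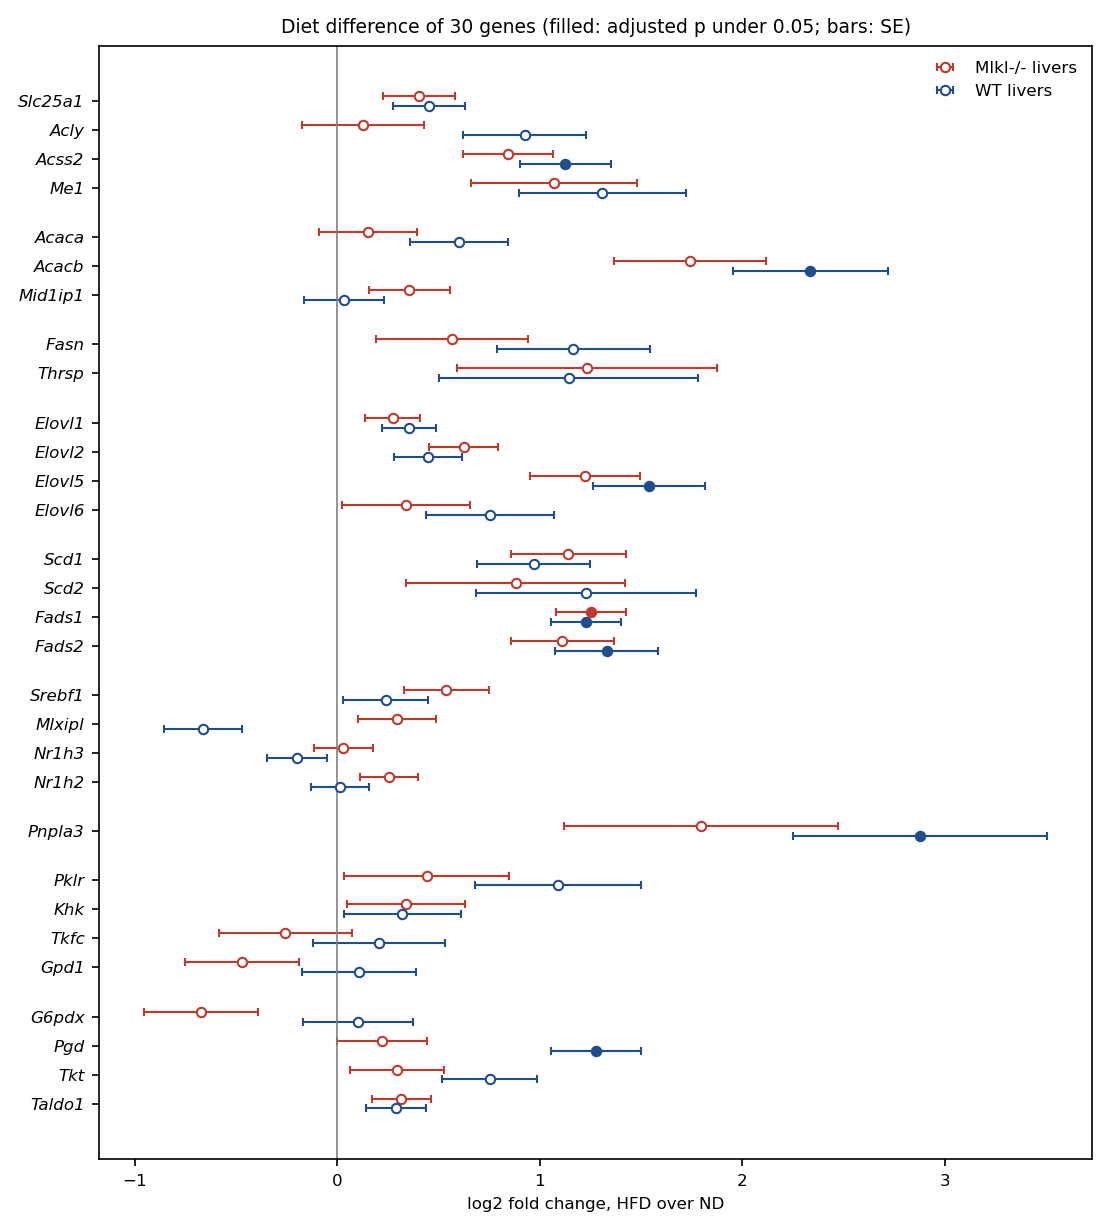
The log2 fold change of HFD against ND (x axis) is plotted for each of the 30 genes, grouped by role. Mlkl-/- livers are red and WT livers blue, and bars show the standard error (SE). Filled points passed the test, which in Mlkl-/- livers was Fads1 alone and in WT livers 7 genes, and 28 WT points and 27 Mlkl-/- points lie above 0.

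The desaturases were the role group with the highest median among those of more than 2 genes, at 1.13 in Mlkl-/- and 1.23 in WT livers. Fads1, which places a double bond in the making of arachidonic and eicosapentaenoic acid, had 755, 1014 and 640 CPM in Mlkl-/- HFD and 336, 352 and 323 CPM in Mlkl-/- ND livers. In WT livers it had 827, 1066 and 959 CPM on HFD and 420, 408 and 389 CPM on ND. Every HFD library stood above every ND library, and the 3 ND values of each genotype lay close together. It rose by 1.25 ± 0.17 in Mlkl-/- livers (log2, SE; adjusted p = 0.00654) and by 1.23 ± 0.17 in WT livers (adjusted p = 0.00483). Fads1 was called in all 12 fits that left out 1 library, in either genotype. With a term for the 8-locus level its Mlkl-/- value was 1.16 and not called (adjusted p = 0.0560), and it was not called in a fit of the Mlkl-/- groups alone.

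Fads2, which catalyses the first desaturation of dietary linoleic and linolenic acid, lies on the same stretch of chromosome 19 as Fads1. It had 547, 814 and 519 CPM in Mlkl-/- HFD and 203, 376 and 290 CPM in Mlkl-/- ND livers. WT livers had 857, 1156 and 867 CPM on HFD and 469, 395 and 281 CPM on ND. The diets were fully separated in both genotypes, and WT HFD lay above Mlkl-/- HFD in all libraries. Fads2 rose by 1.33 ± 0.25 in WT livers (adjusted p = 0.0142), while in Mlkl-/- livers the value was 1.11 ± 0.25 (adjusted p = 0.0740).

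Scd1, the stearoyl-CoA desaturase that makes oleic and palmitoleic acid, had 8736, 6215 and 11884 CPM in Mlkl-/- HFD and 3157, 5044 and 3960 CPM in Mlkl-/- ND livers. In WT livers it had 17040, 23117 and 11614 CPM on HFD and 8716, 7173 and 10552 CPM on ND. HFD lay above ND in both genotypes without overlap, and Mlkl-/- ND lay below WT ND without overlap. Averaged over genotypes it rose by 1.06 ± 0.20 (adjusted p = 0.00684), with 1.14 ± 0.28 in Mlkl-/- (adjusted p = 0.0990) and 0.97 ± 0.28 in WT livers (adjusted p = 0.0652). Its neighbour Scd2, a desaturase best known from brain and other tissues outside the adult liver, had 82.9 to 252 CPM in Mlkl-/- HFD, 30.9 to 112 in Mlkl-/- ND, 253 to 516 in WT HFD and 131 to 207 in WT ND livers. It was not called for diet by edgeR in the fit of all groups (0.88 ± 0.54 in Mlkl-/- and 1.23 ± 0.54 in WT livers), and was called in WT livers when the WT groups were fitted alone.

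**Figure D2:**
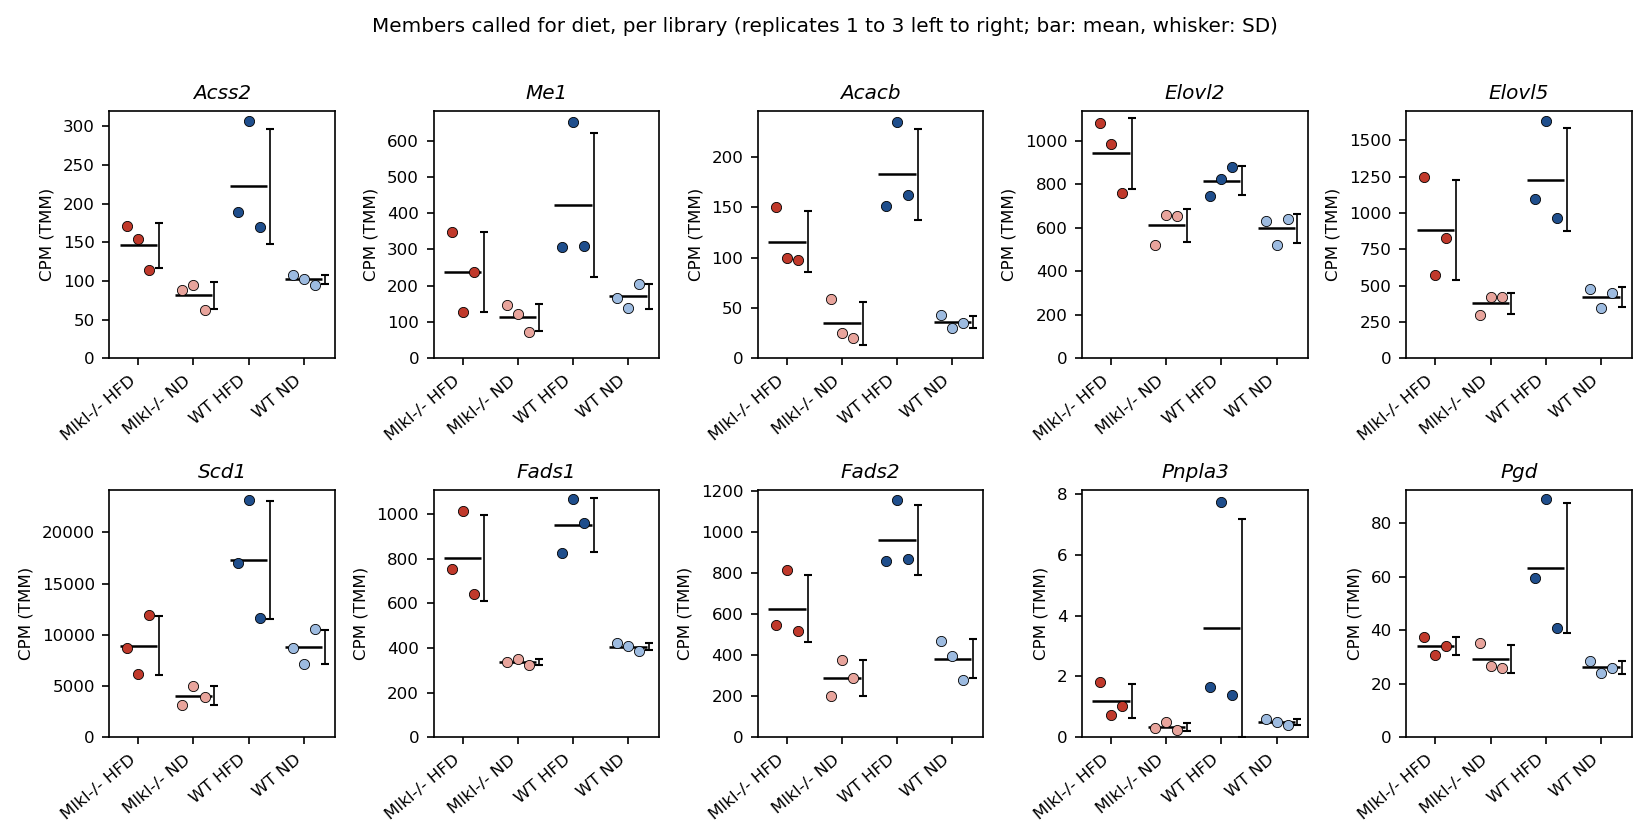
CPM with TMM scaling (y axes, from 0) in each liver (points) with the group mean and SD (bars) for the genes called for diet, in Mlkl-/- HFD, Mlkl-/- ND, WT HFD and WT ND groups of 3 livers. Fads1 shows ND values of 323 to 420 CPM below HFD values of 640 to 1066 CPM in both genotypes, and Pnpla3 shows 1 WT HFD liver at 7.74 CPM above the rest.

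Among the elongases Elovl5 passed the test in WT livers and Elovl2 with it in the average. Elovl5, which lengthens polyunsaturated chains made by Fads2, had 1249, 573 and 829 CPM in Mlkl-/- HFD and 295, 420 and 420 CPM in Mlkl-/- ND livers. WT livers had 1094, 1633 and 962 CPM on HFD and 474, 343 and 451 CPM on ND. All 6 HFD livers were above all 6 ND livers. The rise was 1.54 ± 0.28 in WT livers (adjusted p = 0.0124), and the value was 1.22 ± 0.27 in Mlkl-/- livers (adjusted p = 0.0728).

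Elovl2, which lengthens chains further on the way to docosahexaenoic acid, had 1079, 986 and 760 CPM in Mlkl-/- HFD and 523, 656 and 654 CPM in Mlkl-/- ND livers. It had 746, 823 and 878 CPM in WT HFD and 629, 522 and 642 CPM in WT ND livers. The diets did not overlap in either genotype. Averaged over genotypes it rose by 0.54 ± 0.12 (adjusted p = 0.0162), with 0.62 ± 0.17 in Mlkl-/- (adjusted p = 0.121) and 0.45 ± 0.17 in WT livers (adjusted p = 0.148). Elovl6, which takes palmitate to stearate, and Elovl1, which acts on saturated very long chains, were not called in any diet comparison by edgeR, at 0.34 and 0.27 in Mlkl-/- and 0.75 and 0.35 in WT livers. DESeq2 called Elovl1 in the average over genotypes. Elovl6 ranged from 60.5 to 71.2 CPM in Mlkl-/- HFD, from 41.5 to 58.4 in Mlkl-/- ND, from 68.4 to 207 in WT HFD and from 63.0 to 81.2 in WT ND livers.

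Of the carboxylases Acacb passed edgeR's test and Acaca did not. Acacb, whose product sits at the mitochondrial surface and makes the malonyl-CoA that restrains fatty acid oxidation, had 151, 99.7 and 97.6 CPM in Mlkl-/- HFD and 59.3, 24.8 and 20.02 CPM in Mlkl-/- ND livers. In WT livers it had 151, 235 and 163 CPM on HFD and 43.0, 30.5 and 35.1 CPM on ND. Diets were separated in both genotypes, and Mlkl-/- ND replicate 1 stood above the other ND livers. It rose by 2.34 ± 0.38 in WT livers (adjusted p = 0.0129) and stood at 1.74 ± 0.38 in Mlkl-/- livers (adjusted p = 0.0867). Averaged over genotypes the rise was 2.04 ± 0.27 (adjusted p = 0.00240).

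Acaca, the cytosolic carboxylase that supplies malonyl-CoA for synthesis, had 73.5 to 89.4 CPM in Mlkl-/- HFD, 60.8 to 86.4 in Mlkl-/- ND, 87.0 to 195 in WT HFD and 73.9 to 100 in WT ND livers. HFD and ND overlapped in both genotypes, with values of 0.15 ± 0.24 in Mlkl-/- and 0.60 ± 0.24 in WT livers. Mid1ip1, which promotes polymerisation of the carboxylase, averaged 43.8 ± 8.78 CPM in Mlkl-/- HFD, 34.2 ± 10.4 in Mlkl-/- ND, 41.4 ± 4.01 in WT HFD and 40.5 ± 4.18 in WT ND livers (SD, n = 3 each), with values of 0.36 ± 0.20 in Mlkl-/- and 0.03 ± 0.20 in WT livers.

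Fatty acid synthase itself was not called by edgeR, whereas DESeq2 called it in WT livers and in the average. Fasn had 404, 343 and 250 CPM in Mlkl-/- HFD, 205, 304 and 163 CPM in Mlkl-/- ND, 480, 960 and 347 CPM in WT HFD and 330, 285 and 181 CPM in WT ND livers. The WT diets did not overlap, with WT HFD replicate 2 far above the other 2, and the Mlkl-/- diets did. Its values were 0.57 ± 0.37 in Mlkl-/- (adjusted p = 0.537) and 1.17 ± 0.38 in WT livers (adjusted p = 0.111). Thrsp, or Spot 14, a partner of Mid1ip1 that is known to follow carbohydrate feeding, had 79.6 to 305 CPM in Mlkl-/- HFD, 28.5 to 159 in Mlkl-/- ND, 244 to 322 in WT HFD and 78.5 to 172 in WT ND livers. By edgeR it was not called either in the fit of all groups, at 1.24 ± 0.64 in Mlkl-/- and 1.14 ± 0.64 in WT livers, and was called in WT livers when the WT groups were fitted alone.

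In the supply of acetyl-CoA and NADPH, edgeR called 1 of 4 genes higher in WT livers, against 2.02% of all genes, and 0 in Mlkl-/- livers. DESeq2 called Acly, Acss2 and Me1 in WT livers and Acss2 in Mlkl-/- livers. Acss2, which makes cytosolic acetyl-CoA from acetate, had 171, 154 and 114 CPM in Mlkl-/- HFD and 87.8, 95.01 and 62.0 CPM in Mlkl-/- ND livers. In WT livers it had 190, 307 and 170 CPM on HFD and 108, 103 and 95.3 CPM on ND. The diets were separated in both genotypes. Acss2 rose by 1.13 ± 0.22 in WT livers (adjusted p = 0.0165), and the Mlkl-/- value was 0.84 ± 0.22 (adjusted p = 0.118).

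Me1, the malic enzyme that yields NADPH, had 348, 127 and 238 CPM in Mlkl-/- HFD, 146, 122 and 73.1 CPM in Mlkl-/- ND, 306, 652 and 309 CPM in WT HFD and 167, 139 and 205 CPM in WT ND livers. HFD was separated from ND in WT livers and overlapped with it in Mlkl-/- livers. Averaged over genotypes Me1 rose by 1.19 ± 0.29 (adjusted p = 0.0357), and this call was kept in 4 of 12 fits that left out 1 library. Acly, the citrate lyase that opens the cytosolic route, had 128 to 216 CPM in Mlkl-/- HFD, 135 to 207 in Mlkl-/- ND, 182 to 427 in WT HFD and 126 to 158 in WT ND livers. By edgeR it was not called, at 0.13 ± 0.30 in Mlkl-/- and 0.93 ± 0.30 in WT livers (adjusted p = 0.883 and 0.109). Slc25a1, the mitochondrial citrate carrier, was at 0.40 ± 0.18 in Mlkl-/- and 0.45 ± 0.18 in WT livers, also not called by edgeR, and DESeq2 called it in the average.

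Pnpla3, a lipid droplet protein with lipase and acyltransferase activity, was scarce. It had 1.81, 0.722 and 1.03 CPM in Mlkl-/- HFD, 0.295, 0.487 and 0.237 CPM in Mlkl-/- ND, 1.64, 7.74 and 1.40 CPM in WT HFD and 0.598, 0.491 and 0.393 CPM in WT ND livers. WT HFD values rest on 41, 255 and 29 counts, and the WT ND values on 14, 10 and 12. Mlkl-/- HFD values rest on 38, 15 and 25 counts, and the Mlkl-/- ND values on 6, 11 and 6. All HFD livers lay above all ND livers, and WT HFD replicate 2 stood far above every other library. Pnpla3 rose by 2.88 ± 0.63 in WT livers (adjusted p = 0.0236), and without WT HFD replicate 2 the value was 1.62 and not called (adjusted p = 0.150). In Mlkl-/- livers the value was 1.79 ± 0.68 (adjusted p = 0.264).

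In the pentose phosphate pathway, whose oxidative branch makes NADPH, edgeR called 1 of 4 genes higher in WT livers, against 2.02% of all genes. Pgd, the 6-phosphogluconate dehydrogenase of that branch, had 37.5, 30.8 and 34.2 CPM in Mlkl-/- HFD and 35.3, 26.6 and 26.0 CPM in Mlkl-/- ND livers. WT livers had 59.3, 89.0 and 40.9 CPM on HFD and 28.5, 23.96 and 25.7 CPM on ND. The WT HFD livers stood above all 9 others, whose ranges overlapped across diets in Mlkl-/- mice. Pgd rose by 1.28 ± 0.22 in WT livers (adjusted p = 0.0110) and was at 0.22 ± 0.22 in Mlkl-/- livers (adjusted p = 0.689).

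G6pdx, the first enzyme of the branch, had 4.58, 2.69 and 5.27 CPM in Mlkl-/- HFD, 4.27, 8.46 and 7.27 CPM in Mlkl-/- ND, 8.57, 8.29 and 6.41 CPM in WT HFD and 8.33, 5.84 and 7.50 CPM in WT ND livers. Diets overlapped in both genotypes, at -0.67 ± 0.28 in Mlkl-/- (adjusted p = 0.307) and 0.10 ± 0.27 in WT livers (adjusted p = 0.880). The non-oxidative enzymes Tkt and Taldo1 were at 0.30 and 0.32 in Mlkl-/- and 0.75 and 0.29 in WT livers, and neither was called by edgeR in the fit of all groups. DESeq2 called Tkt in WT livers and in the average.

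The genes that bring sugar carbon in were not called in any diet comparison by edgeR in the fit of all groups, nor by DESeq2. Pklr, the liver pyruvate kinase and a textbook ChREBP target, had 120 to 248 CPM in Mlkl-/- HFD, 64.7 to 188 in Mlkl-/- ND, 234 to 381 in WT HFD and 98.5 to 170 in WT ND livers. Its value was 0.44 ± 0.41 in Mlkl-/- and 1.09 ± 0.41 in WT livers (adjusted p = 0.668 and 0.167), and it was called in WT livers when the WT groups were fitted alone. Khk, which phosphorylates fructose, and Tkfc, which acts on the glyceraldehyde derived from it, were at 0.34 and -0.26 in Mlkl-/- and 0.32 and 0.21 in WT livers. Gpd1, which makes glycerol phosphate for triglyceride, was at -0.47 ± 0.28 in Mlkl-/- and 0.11 ± 0.28 in WT livers. Mlkl-/- ND replicate 1 was the highest of the 12 libraries for Tkfc and Gpd1.

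No transcription factor gene of the group was called for diet by edgeR in the fit of all 12 libraries with TMM factors. The median of these genes was 0.28 in Mlkl-/- and -0.09 in WT livers. Srebf1 had 176, 284 and 184 CPM in Mlkl-/- HFD, 117, 189 and 137 CPM in Mlkl-/- ND, 259, 239 and 257 CPM in WT HFD and 255, 200 and 184 CPM in WT ND livers. HFD and ND overlapped in both genotypes, at 0.54 ± 0.21 in Mlkl-/- (adjusted p = 0.272) and 0.24 ± 0.21 in WT livers (adjusted p = 0.573). With library size only, edgeR called Srebf1 in the average over genotypes. The counts do not separate SREBP-1a from SREBP-1c, since they are summed per gene.

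Mlxipl and Nr1h3 were the 2 genes with values below 0 for diet in WT livers. Mlxipl had 149, 210 and 134 CPM in Mlkl-/- HFD, 130, 157 and 115 CPM in Mlkl-/- ND, 132, 122 and 124 CPM in WT HFD and 178, 168 and 251 CPM in WT ND livers. WT HFD lay wholly below WT ND, whereas the Mlkl-/- diets overlapped. The WT value was -0.66 ± 0.19 (adjusted p = 0.0649), and the Mlkl-/- value was 0.30 ± 0.19 (adjusted p = 0.519). DESeq2 called Mlxipl in WT livers (-0.65, adjusted p = 0.0269), as did edgeR when the WT groups were fitted alone. In WT livers it was called in 3 of 10 other settings, these included, and in 1 of 12 fits that left out 1 library. In the test of the difference between genotypes it stood at 0.96 ± 0.27, with an unadjusted p of 0.00304 and an adjusted p of 0.384.

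Nr1h3, which encodes LXR-alpha, had 93.1, 92.7 and 73.4 CPM in Mlkl-/- HFD, 103, 75.2 and 75.6 CPM in Mlkl-/- ND, 71.4, 71.0 and 78.5 CPM in WT HFD and 85.8, 87.7 and 79.7 CPM in WT ND livers. WT HFD lay just below WT ND, and the Mlkl-/- groups overlapped. Nr1h2, which encodes LXR-beta, had 33.3, 31.3 and 30.7 CPM in Mlkl-/- HFD, 26.2, 26.3 and 27.4 CPM in Mlkl-/- ND, 26.0, 28.8 and 33.7 CPM in WT HFD and 30.4, 33.2 and 24.1 CPM in WT ND livers. The Mlkl-/- diets did not overlap for Nr1h2, and the WT diets did. Diet values were 0.03 ± 0.15 for Nr1h3 (adjusted p = 0.947) and 0.26 ± 0.14 for Nr1h2 (adjusted p = 0.452) in Mlkl-/- livers, and -0.20 ± 0.15 (adjusted p = 0.499) and 0.01 ± 0.14 (adjusted p = 0.974) in WT livers.

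Beside the 30 genes, 49 genes of the same pathways in 9 lists were counted. In WT livers 4 of the 49 rose and 0 fell, against 2.02% higher and 2.21% lower of all genes, and all 4 were among the 7 genes that take pyruvate to citrate in mitochondria. These were Pcx, pyruvate carboxylase (0.95 ± 0.16, adjusted p = 0.00888), Dlat (0.76 ± 0.15) and Pdha1 (0.58 ± 0.13), subunits of pyruvate dehydrogenase, and citrate synthase Cs (0.74 ± 0.16). Pcx averaged 535 ± 98.3 CPM in Mlkl-/- HFD, 393 ± 28.1 in Mlkl-/- ND, 696 ± 86.1 in WT HFD and 360 ± 25.9 in WT ND livers (SD, n = 3 each). In Mlkl-/- livers 0 of the 49 were called by edgeR, with Pcx at 0.44 ± 0.16 (adjusted p = 0.245).

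Averaged over genotypes 7 of the 49 rose, against 3.57% of all genes, namely those 4, the pyruvate carrier subunit Mpc1 (0.50 ± 0.12), Aldh2 (0.44 ± 0.12), which oxidises aldehydes, and the phospholipid acyltransferase Lpcat3 (0.39 ± 0.11), an LXR target. Of 11 genes of glucose entry and glycolysis 0 were called by edgeR in any diet comparison. The sterol sensor partner Insig1 (-0.06 in Mlkl-/- and 0.29 in WT livers), the receptor partner Rxra (0.06 and 0.01), the elongation-cycle reductase Hsd17b12 (0.18 and 0.55), the microsomal dehydrogenase H6pd (0.03 and -0.29) and the glucose-6-phosphatase gene G6pc (-0.57 and -0.86) were not called.

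Markers of other cell types moved with diet, and their part in these results was not tested. In WT livers the 8 hepatocyte markers summed to 67607 to 90106 CPM on HFD and 107626 to 110420 CPM on ND, and 1 was called lower. The 6 adipocyte markers summed to 19.98 to 43.5 CPM on WT HFD and 13.3 to 19.2 CPM on WT ND, and the 5 Kupffer cell markers to 177 to 240 and 118 to 150 CPM. Of the 5 markers of monocyte-derived macrophages 2 were called higher on WT HFD and 5 were above 0 (median 1.57), with sums of 18.1 to 47.4 CPM on WT HFD and 17.7 to 21.9 CPM on WT ND. Endothelial markers, and stellate cell and fibroblast markers, each had 5 of 5 fitted values above 0 in WT livers (medians 0.27 and 0.53). In Mlkl-/- livers hepatocyte markers overlapped (83888 to 110172 CPM on HFD and 84343 to 116782 CPM on ND), while the 5 stellate cell and fibroblast markers summed to 146 to 175 CPM on HFD and 184 to 217 CPM on ND. Adipocyte markers had 7.16 to 22.2 CPM on Mlkl-/- HFD and 13.9 to 30.7 CPM on Mlkl-/- ND, although 5 of the 6 had fitted values above 0 (median 2.59). The 5 endothelial markers summed to 77.7 to 96.97 CPM on Mlkl-/- HFD and 95.8 to 149 CPM on Mlkl-/- ND, with 0 of 5 above 0 (median -0.54). Kupffer cell markers summed to 77.0 to 165 CPM on Mlkl-/- HFD and 99.7 to 199 CPM on Mlkl-/- ND, also with 0 of 5 above 0 (median -0.53). Of the 5 cholangiocyte markers 0 were above 0 in Mlkl-/- livers (median -0.68) and 2 in WT livers (median -0.04). Retn was at 0 in all 3 Mlkl-/- ND libraries, Mlkl-/- HFD replicate 1 and WT HFD replicate 1, and Lep in Mlkl-/- HFD replicate 1. In a bulk sample, fewer cells of a type and less RNA per cell cannot be told apart.

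Most of the 30 genes were also higher on HFD within each division of the libraries that could be compared. No title number occurs on both diets. Here 23 (ND) was joined with 25 (HFD) and 27 (ND) with 29 (HFD), a grouping that the labels do not give. Within title numbers 23 and 25, 22 of 30 genes were higher on HFD in Mlkl-/- livers (median log2 difference 0.52) and 24 in WT livers (0.51). Within 27 and 29 the counts were 24 (0.33) and 27 (0.81). Within the high 8-locus level 22 of 30 were higher in Mlkl-/- livers (0.37, 3 HFD against 1 ND), and within the low level 25 in WT livers (0.47, 1 HFD against 3 ND). These medians have no test, since each cell holds 1 to 3 libraries. When the model held a term for the 8-locus level, 3 of 30 genes were called in WT livers (Acacb, Fads1 and Fads2), 0 in Mlkl-/- livers and 4 in the average (Acacb, Elovl5, Fads1 and Fads2). Over all genes that fit called 158 in WT livers, 27 in Mlkl-/- livers and 122 in the average, against 766, 65 and 1302 without the term. The WT values of the genes no longer called were 1.63 for Elovl5, 0.95 for Acss2, 1.09 for Pgd and 2.18 for Pnpla3.

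Livers of the same group differed from each other. The mean deviation of the 30 genes from their average over all libraries was 0.33, -0.01 and -0.05 (log2) in Mlkl-/- HFD, -0.36, -0.33 and -0.69 in Mlkl-/- ND, 0.41, 0.90 and 0.34 in WT HFD and -0.05, -0.21 and -0.29 in WT ND livers. WT HFD replicate 2 was the highest of all 12 libraries for 19 of the 30 genes, and Mlkl-/- ND replicate 3 the lowest for 15. Within Mlkl-/- HFD, replicate 1 was the highest for 23. The largest value of a gene within a group exceeded the smallest by a median factor of 1.58 in Mlkl-/- HFD, 1.61 in Mlkl-/- ND, 1.39 in WT HFD and 1.37 in WT ND livers. Without WT HFD replicate 2, without WT ND replicate 2 or without WT ND replicate 3, Fads1 was the 1 gene of the 30 still called in WT livers, against 7 with all libraries. Over all genes 63, 100 and 113 were called in those 3 fits, in the same order, against 766.

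**Figure D3:**
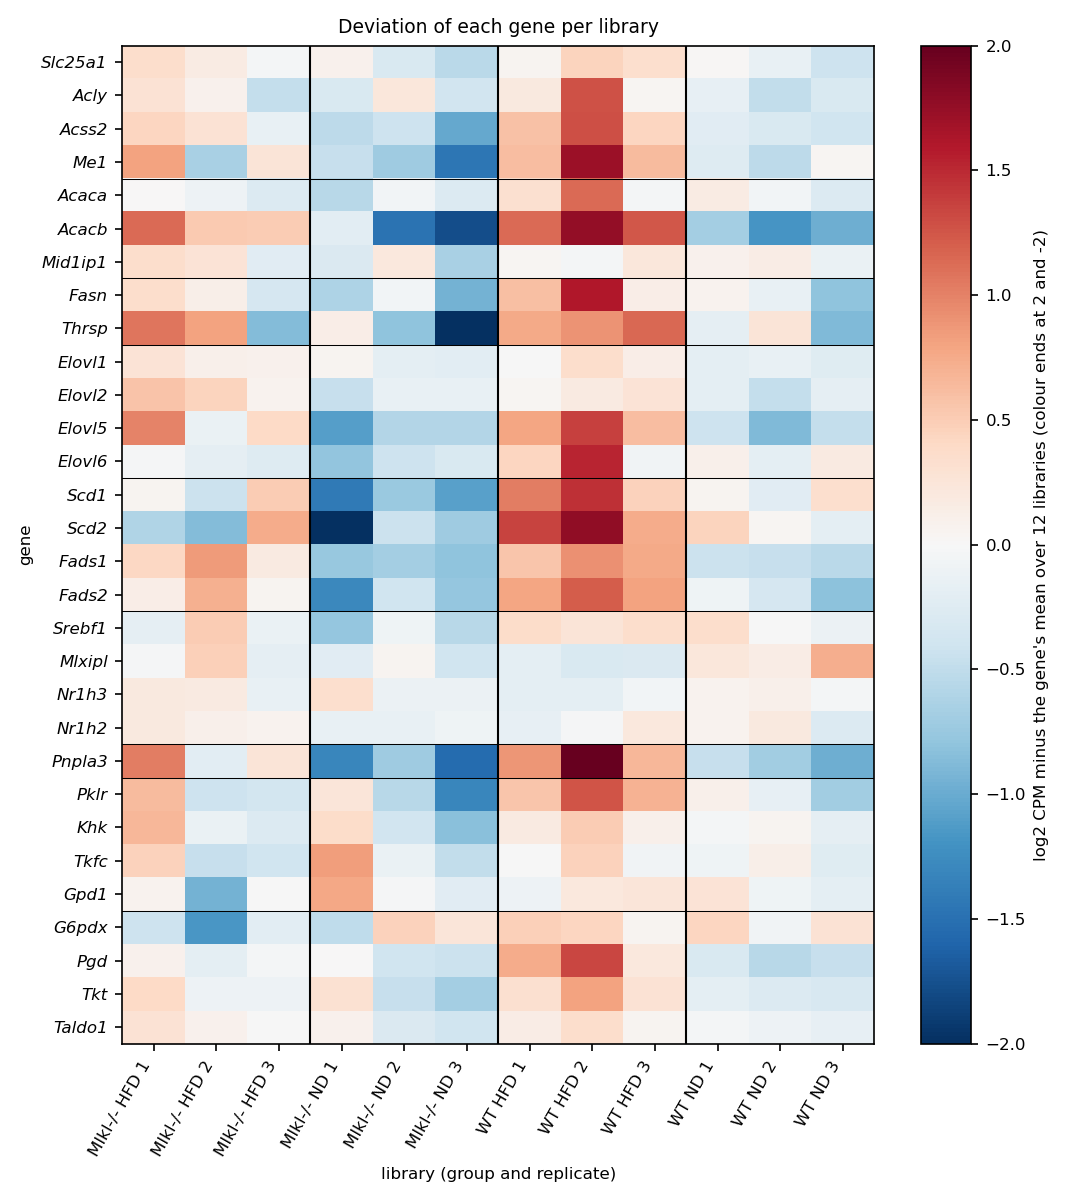
Colour shows the deviation (log2 CPM) of each of the 30 genes (rows, by role) from its mean over 12 libraries (columns, in the order Mlkl-/- HFD, Mlkl-/- ND, WT HFD, WT ND). The column of WT HFD replicate 2 is the highest for 19 genes and that of Mlkl-/- ND replicate 3 the lowest for 15.

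Between genotypes most of the 30 genes had lower fitted values in Mlkl-/- livers on HFD, but none passed the test across all genes. On HFD the median was -0.44 against 0.01 for all genes, and 5 of 30 genes were above 0 against 51.7% of all. By edgeR 0 of 30 were called (0.0276% of all genes), and by DESeq2 2, Pgd and Scd1, among 395 of all genes. At an unadjusted p under 0.05 there were 10 genes lower in Mlkl-/- livers and 0 higher, against 8.29% and 7.21% of all genes. The 10 were Acaca, Acss2, Elovl6, Fads2, Fasn, G6pdx, Pgd, Pnpla3, Scd1 and Scd2. Mlkl-/- HFD lay wholly below WT HFD for 5 genes, Acacb, Fads2, G6pdx, Pgd and Scd2, against 10.8% of all genes, and wholly above for Mlxipl, against 10.6%. The nearest libraries were almost equal for Acacb (150.85 in Mlkl-/- and 151.11 CPM in WT) and Scd2 (252.4 and 253.2 CPM).

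Among the 30 genes Scd1 had the largest ratio of genotype effect to error in the average over diets, at -1.03 ± 0.20 (adjusted p = 0.0866). It averaged 8945 ± 2840 CPM in Mlkl-/- HFD and 17257 ± 5754 CPM in WT HFD livers, and 4054 ± 947 CPM in Mlkl-/- ND and 8814 ± 1691 CPM in WT ND livers (SD, n = 3 each). The genotypes overlapped on HFD, where Mlkl-/- replicate 3 exceeded WT replicate 3, and did not overlap on ND. The values were -0.95 ± 0.28 on HFD (adjusted p = 0.164) and -1.12 ± 0.28 on ND (adjusted p = 0.431), with 95% intervals of -1.60 to -0.30 and -1.77 to -0.47. DESeq2 called it on either diet and in the average.

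Scd2 averaged 145 ± 93.5 CPM in Mlkl-/- HFD and 385 ± 131 CPM in WT HFD livers, and 78.6 ± 42.5 CPM in Mlkl-/- ND and 165 ± 38.7 CPM in WT ND livers (SD, n = 3 each). No Mlkl-/- liver reached the lowest WT liver on the same diet, though on HFD the nearest stood at 252.4 against 253.2 CPM. Its values were -1.41 ± 0.55 on HFD and -1.06 ± 0.54 on ND, neither called (adjusted p = 0.269 and 0.930). On HFD the 5 endothelial markers summed to 77.7 to 96.97 CPM in Mlkl-/- and 148 to 227 CPM in WT livers, the 5 Kupffer cell markers to 77.0 to 165 and 177 to 240 CPM, and the 8 hepatocyte markers to 83888 to 110172 and 67607 to 90106 CPM, with the endothelial and Kupffer ranges apart. The 5 stellate cell and fibroblast markers summed to 146 to 175 CPM in Mlkl-/- HFD and 175.3 to 364 CPM in WT HFD livers, also apart. Of the endothelial, Kupffer, stellate, macrophage and adipocyte markers 0 had fitted values above 0 for genotype on HFD (medians -0.98, -0.86, -1.02, -1.66 and -1.36), and of the hepatocyte markers 7 of 8 had (median 0.31). The part of these markers in the genotype values was not tested.

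On ND 0 of 30 genes were called by edgeR (0.00553% of all genes) and 1, Scd1, by DESeq2, among 44 of all genes. The median was -0.17 against 0.0003 for all genes, and 8 of 30 were above 0 against 50% of all. At an unadjusted p under 0.05, 3 genes were lower in Mlkl-/- livers, Mlxipl, Scd1 and Srebf1, and 0 higher, against 2.70% and 2.81% of all genes. Mlkl-/- ND lay wholly below WT ND for 6 genes, Acss2, Elovl6, Fads1, Mlxipl, Scd1 and Scd2, against 5.56% of all, and wholly above for 0, against 4.93%. Averaged over diets 0 of 30 were called by edgeR (0.0166% of all genes) and 1, Scd1, by DESeq2, among 203 of all genes, with 11 lower and 0 higher at an unadjusted p under 0.05, against 6.01% and 4.64% of all genes. In that average 4 of 30 were above 0, against 51.7% of all. The comparison on ND shares its libraries with the diet comparisons above, as does that on HFD.

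**Figure D4:**
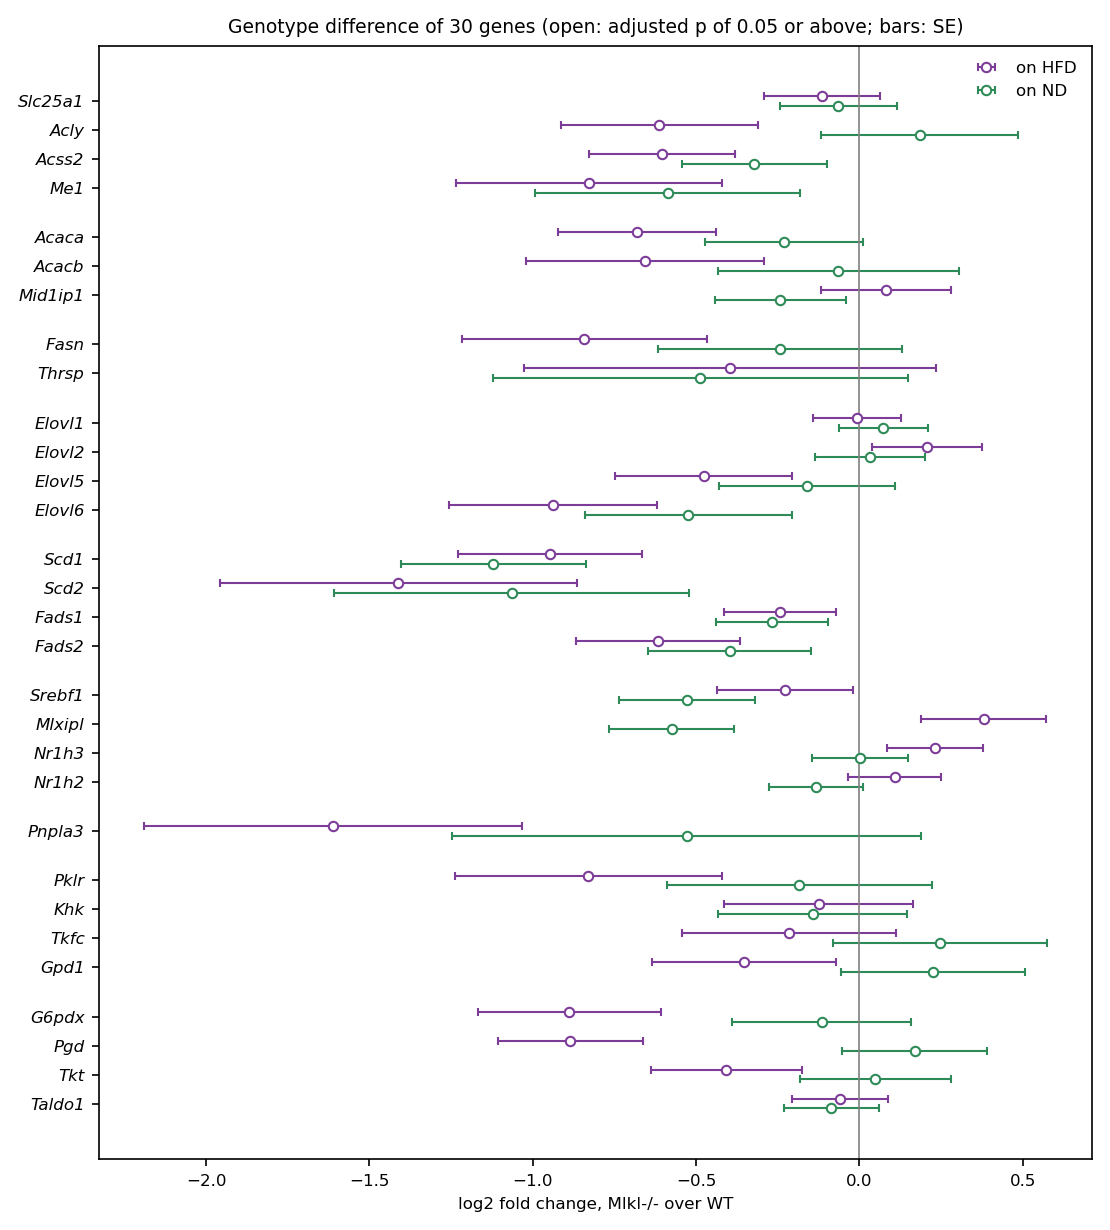
The log2 fold change of Mlkl-/- against WT (x axis) is plotted for each of the 30 genes on HFD (purple) and on ND (green). Bars show the standard error (SE). All points are open because 0 of 30 passed the test on either diet, and 5 of the HFD points and 8 of the ND points lie above 0.

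Within title numbers 27 and 29, 29 of 30 genes were lower in Mlkl-/- than in WT livers on HFD (median -0.59) and 20 on ND (-0.13). Within 23 and 25 the counts were 18 on HFD (-0.22) and 17 on ND (-0.20). Within the high 8-locus level 25 genes were lower on HFD (-0.62), and within the low level 25 on ND (-0.25). The HFD difference was larger within the numbers that hold WT HFD replicates 2 and 3 and Mlkl-/- HFD replicate 3. No test is given for these differences.

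Whether the diet effect differed between genotypes was tested as an interaction, in which a negative value means a smaller diet effect in Mlkl-/- livers. By edgeR and by DESeq2 0 of 30 genes were called, against 0% of all genes by edgeR. The median of the 30 was -0.26 against 0.01 for all genes, and 11 of 30 were above 0 against 50.8% of all genes. The remaining 19 are by definition those with a larger diet value in WT than in Mlkl-/- livers. At an unadjusted p under 0.05 there were 2 genes, against 10.4% of all: Mlxipl, given above, and Pgd, at -1.05 ± 0.31 (adjusted p = 0.384). Fads1 had an interaction of 0.02 ± 0.24, with a 95% interval from -0.53 to 0.58. For Acacb, Elovl5 and Fads2, called by edgeR in WT but not in Mlkl-/- livers, the interaction was -0.59 ± 0.52, -0.32 ± 0.38 and -0.22 ± 0.35, so a difference between genotypes was not shown for them. DESeq2 called these genes for diet in both genotypes.

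Reads were counted by the authors per gene near the 3' end, and 7 of the 30 genes have another annotated gene within 200 bases of that end. These are Acss2 (Gss), Elovl1 (Cdc20), Srebf1 (Rai1), Pnpla3 (Gm49513), Pklr (Hcn3), Tkfc (Cyb561a3) and G6pdx (Ikbkg). The sources used here do not say whether counting used strand. Without strand, reads of these genes and of the neighbour cannot be told apart, and their values carry that uncertainty. Gm49513 lies on the same strand as Pnpla3, so strand would not separate that pair.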

How the data were processed

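Liver RNA of 12 mice was turned by the authors into QuantSeq 3' libraries for an Illumina NextSeq, per the labels' protocols. The authors deposited raw counts per Ensembl gene with no normalization, and the submitters' processing notes name cutadapt 1.9, HISAT2, featureCounts, limma and the mm10 build. The sources used here give no other versions, annotation or strand setting. Symbols and positions came from GENCODE M21, and a symbol was found for 51633 of 51912 identifiers.

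The labels of genotype and diet gave the groups, and columns were matched to samples by the animal number in the title. Genes were filtered with filterByExpr (minimum 10 counts, 15 in total), which left 18098, and library sizes were scaled by TMM (0.922 to 1.16). edgeR 4.0.16 in R 4.3.3 fitted a robust quasi-likelihood model to all 12 libraries, with a mean for each group (8 residual degrees of freedom), and the script was checked on simulated data. There were 7 contrasts, with Benjamini-Hochberg adjustment over all 18098 genes tested and a call at an adjusted p under 0.05. SE is the standard error of the log2 fold change, 95% intervals use 8 degrees of freedom, and SD is over 3 libraries. Values within divisions of the libraries used log2(CPM + 0.1). Every pair of libraries in a group differed beyond sampling noise (chi-square per degree of freedom 19.4 to 137). At these depths counting error, for reads without molecular identifiers, bears mainly on Pnpla3 and G6pdx.

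The 30 genes, the lists and the tests were chosen with earlier results of these data known. All 30 are accounted for. Values in every library are given for those called and for the transcription factors, and of each pathway list up to 3 called genes per direction, otherwise the gene with the highest mean. Pdha1 and Mpc1 fall outside that rule and were named after their values were seen, and some genes that the rule takes were left out. Promoter windows came from the RefSeq table of GRCm38.p6 and were searched for 6 motifs. No table of protein sequences was used here. Alternatives were RLE factors, library size only, 2 other filters, DESeq2 1.42.0, limma-voom (limma 3.58.1), fits of only the groups compared, dispersions without robust estimation, the title number or the 8-locus level as a term, and leaving out each library.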

Additional observations from a re-analysis of the deposited data

How the results depend on the processing

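Counts are of the 30 genes called. In the diet comparison in WT livers (7 called) library size without TMM gave 12 and DESeq2 13. A fit of only the groups compared gave 13 and the 8-locus level as a term 3. Over all genes these fits called 1102, 1441, 1431 and 158, in that order, against 766. In Mlkl-/- livers 1 gene was called, with 65 of all genes. No filter beyond 1 count, limma-voom and dispersions without robust estimation each gave 2 (171, 48 and 79 of all genes). DESeq2 gave 7 (514 of all genes). A fit of only the groups compared and the 8-locus term each gave 0 (8 and 27 of all genes). For diet averaged over genotypes (10 called) library size alone gave 16 and the 8-locus term 4. Over all genes these fits called 1980 and 122, against 1302. For genotype (0 called) DESeq2 gave 2 on HFD, 1 on ND and 1 in the average. No filter and the title number as a term also gave 1 in the average. Over all genes DESeq2 called 395, 44 and 203, against 5, 1 and 3 by edgeR. No filter called 74 of all genes in the average and the title number 13. Library size alone moved the median of all genes to 0.19 for diet in WT livers, 0.13 for diet on average and -0.16 for genotype on HFD.

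Leaving out 1 library gave 1 to 10 called for diet in WT livers, 1 to 3 in Mlkl-/- livers and 9 to 15 on average. For genotype it gave 0 to 2 on HFD (Elovl6 and Pgd without WT HFD replicate 3), 0 to 0 on ND and 0 to 1 on average, and for the interaction 0 to 0. In WT livers the lowest count came without WT HFD replicate 2, WT ND replicate 2 or WT ND replicate 3. The highest in Mlkl-/- livers came without Mlkl-/- HFD replicate 2 (Elovl5, Fads1 and Scd1), and Mlkl-/- ND replicate 1 left out gave 2 (Acacb and Fads1). Over all genes those fits called 97 and 729 for diet in Mlkl-/- livers, against 65. Without WT HFD replicate 3, 189 of all genes were called for genotype on HFD, against 5.

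Among the single results recomputed, those of the called genes and the transcription factors, values of Nr1h3 and Nr1h2, near 0, turned direction. Nr1h3 turned for genotype on ND, at -0.057 with library size alone, -0.014 with the 5 CPM filter, -0.012 with limma-voom and -0.096 with the 8-locus term. It turned for diet in Mlkl-/- livers, at -0.036 with the title number and -0.13 with the 8-locus term, and for diet on average, at 0.054 with library size alone. Nr1h2 turned for genotype on HFD, at -0.058 with library size alone, for diet in WT livers, at -0.066 with the 8-locus term, and for genotype on average, at 0.00064 with limma-voom. Without 1 library Nr1h3 ran from -0.18 to 0.080 for genotype on ND, -0.036 to 0.22 for diet in Mlkl-/- livers and -0.11 to 0.022 for diet on average, and Nr1h2 from -0.097 to 0.13 for diet in WT livers and -0.086 to 0.041 for genotype on average. The cause of these shifts was not tested. No paired analysis was possible because the labels number the animals separately and replicate numbers follow accession order. Depth limits Pnpla3, at 6 to 11 counts in Mlkl-/- ND and 10 to 14 counts in WT ND libraries.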

Other observations

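Cholesterol synthesis, whose genes are known SREBP-2 targets, gave values of another shape across the same livers. In WT livers 14 of 18 genes rose with HFD, against 2.02% of all genes, and 0 fell (median 1.04, against 0.75 for the 30 genes of lipogenesis), and in Mlkl-/- livers 0 were called by edgeR (median 0.20, against 0.38). Between genotypes on ND 0 were called, with 17 of 18 above 0, against 50% of all genes (median 0.67, against -0.17). Between genotypes on HFD 0 were called by edgeR, with 2 of 18 above 0, against 51.7% of all genes (median -0.16, against -0.44). For the interaction 0 of 18 were called by edgeR. It had 1 of 18 above 0, against 50.8% of all genes, and a median of -0.93, against -0.26. Per library the 18 genes deviated by 0.09, 0.10 and 0.43 (log2) in Mlkl-/- HFD, 0.43, -0.05 and -0.21 in Mlkl-/- ND, -0.07, 0.77 and 0.49 in WT HFD and -0.58, -0.76 and -0.64 in WT ND livers. The difference between the lists was not tested.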
